A study of Rattus norvegicus with 9 samples.

Results

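Tetraspanins and the genes of exosome biogenesis were examined in cultured neural stem cells (NSCs), the cells that received exosomes in this study. The 10 genes were chosen by name and function, by a rule that used no measured value: the tetraspanins Cd9, Cd63, Cd81 and Cd82, the sorting and adaptor genes Tsg101, Pdcd6ip and Sdcbp, the GTPases Rab27a and Rab27b, and the lipid enzyme Smpd3. All 10 were among the 23953 genes of the count table. The NSCs were isolated from the spinal cord of newborn rats and were kept in differentiation medium in all groups. The Con group received medium alone. The Exo group also received exosomes of bone marrow mesenchymal stem cells (BMSCs), which per the study's methods carried an empty lentiviral vector. The pLV-Exo-Wnt5a group received exosomes of BMSCs that carried a lentiviral vector for rat Wnt5a. Each group had 3 RNA-seq libraries, and a single batch entry is given for all 9. Nothing in the labels says that replicates came from separate animals or cultures, so p-values measure the spread between these libraries, which may be technical. The vector was in the donor cells, so Wnt5a in the NSCs is no check of the labels, and it was measured at 25.6 ± 4.53 CPM in Con, 29.0 ± 4.14 CPM in Exo and 28.95 ± 4.02 CPM in pLV-Exo-Wnt5a (SD, n = 3 each).

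Exosomes are vesicles that bud into late endosomes and are released when these multivesicular bodies fuse with the plasma membrane. Tetraspanins are small proteins that cross the membrane several times, gather partner proteins into patches and are carried on the vesicles, for which CD9, CD63 and CD81 serve as markers. The inward budding is driven by the ESCRT complexes, by the syndecan-syntenin-ALIX route and by ceramide. In the nervous system, CD9, CD81 and CD82 are also surface proteins of glia and their progenitors. In the study, CD9, CD63, CD81 and TSG101 protein served to identify the exosomes of the BMSCs, whereas the values here are RNA counts of the receiving cells. RNA carried into the cultures by the exosomes and RNA made by the NSCs cannot be told apart in these counts, nor can fewer cells of a type and less RNA per cell.

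Total counts lay between 32765138 and 40427647 per library. The values are CPM (a gene's counts scaled to a fixed library total) after TMM normalization over the 9 libraries, and a floor of 3 counts stood for 0.0727 to 0.0913 CPM and covers counting error only. Neither counts nor CPM are divided by gene length, so no level is ranked between genes, and sums and ratios over genes are read only between libraries. Of the markers of the labelled cells, Sox2 was measured at 404 to 687 CPM and Nes at 78.5 to 162 CPM, together with markers of the progeny such as Tubb3 at 1521 to 2055 CPM for neurons and Gfap at 2205 to 4082 CPM for astrocytes. The counted genes are named by mouse symbols and NCBI numbers of mouse genes, whereas the cells are labelled as rat, and the genome build is not named in the sources used here. Con replicate 1 stood apart from its group over all genes: the chi-square per degree of freedom between the counts of a pair of libraries was 34.9 and 48.4 for Con replicate 1 against Con replicates 2 and 3, and 7.33 between these. In the other groups it lay between 13.3 and 22.0. Every comparison with Con includes Con replicate 1. Small log2FC moved readily when 1 library was left out. At least 1 omission moved the value by over 1.5 times for 10 of the 10 genes between Exo and Con, 10 of 10 between both exosome groups and 9 of 10 between pLV-Exo-Wnt5a and Con.

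No tetraspanin or exosome biogenesis gene passed the test in any comparison of groups. At a Benjamini-Hochberg adjusted p (Q) under 0.05 in edgeR's quasi-likelihood test, 0 of the 10 genes were called between Exo and Con, where 0.00664% of 15070 tested genes were called. Likewise 0 of 10 were called between pLV-Exo-Wnt5a and Exo (0.436% of 15132 genes) and between pLV-Exo-Wnt5a and Con (0.0862% of 15089 genes). A joint test over the 3 groups also called 0 of 10, with 0.246% of 15458 genes called. DESeq2 on the same libraries called 0 of 10 in each of the 4 tests, while over all genes it called more than edgeR in each pairwise comparison, as given below. Without Con replicate 1, edgeR also called 0 of 10. In that setting 7 of 15454 genes were called between Exo and Con and 18 of 15423 between pLV-Exo-Wnt5a and Con. At an unadjusted p under 0.05, 2 of 10 passed between Exo and Con (Cd63 and Sdcbp) against 14.9% of all genes, 0 of 10 between pLV-Exo-Wnt5a and Exo against 12% of all genes, and 2 of 10 between pLV-Exo-Wnt5a and Con (Cd63 and Cd9) against 8.35% of all genes. In the joint test 1 of 10 passed at this level (Cd63), against 14.8% of all genes. Counts of 0 to 2 in 10 genes lie close to these shares.

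**Figure D1:**
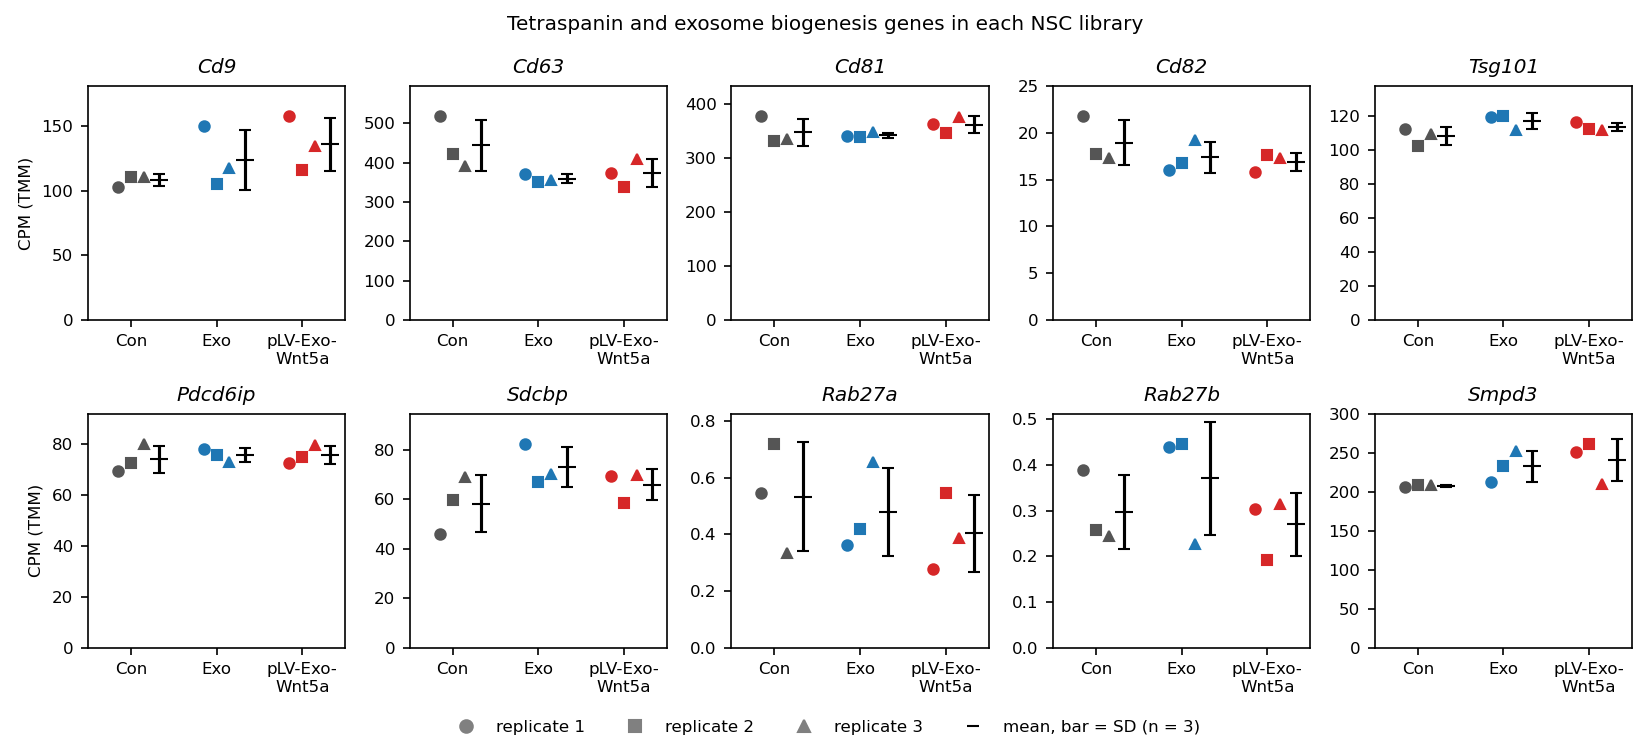
CPM after TMM normalization (vertical axes, each from 0) of the 10 genes in the 9 libraries, by group, with the mean and SD of 3 libraries in black and a marker shape for each replicate number. Cd63 was highest in Con replicate 1 at 518 CPM, the 3 Con libraries of Smpd3 lay together between 207 and 209 CPM, and Rab27a and Rab27b stayed under 1 CPM in every library.

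The 4 tetraspanins were expressed in all 9 libraries. Cd63 (NCBI gene number 12512), a tetraspanin of late endosomes and lysosomes and of exosomes, was measured at 518, 423 and 392 CPM in Con replicates 1, 2 and 3, at 372, 351 and 355 CPM in Exo, and at 373, 337 and 410 CPM in pLV-Exo-Wnt5a. The Con and Exo libraries did not overlap, while pLV-Exo-Wnt5a replicate 3 lay within the Con range. The mean was 444 ± 65.6 CPM in Con and 359 ± 11.04 CPM in Exo (SD, n = 3 each), a log2FC of -0.32 with a 95% interval from -0.55 to -0.08 (edgeR, unadjusted p = 0.0127, Q = 0.272). Between pLV-Exo-Wnt5a and Con the log2FC of Cd63 was -0.26 (interval -0.51 to -0.00335, edgeR, unadjusted p = 0.0475, Q = 0.595). Both differences were over 1.5 times smaller without Con replicate 1, with a log2FC of -0.19 in Exo (edgeR, Q = 0.276) and -0.12 in pLV-Exo-Wnt5a (edgeR, Q = 0.701).

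Cd9 (12527), a tetraspanin of the cell surface that associates with integrins, was measured at 103, 111 and 110 CPM in Con. It was measured at 150, 105 and 117 CPM in Exo and at 158, 117 and 135 CPM in pLV-Exo-Wnt5a. All 3 pLV-Exo-Wnt5a libraries lay above the Con range, and Exo replicate 2 lay within it. Replicate 1 was the highest library in both exosome groups. The group means followed the order Con, Exo and pLV-Exo-Wnt5a, at 108 ± 4.54, 124 ± 23.3 and 136 ± 20.6 CPM (SD, n = 3 each), although neighbouring groups overlapped. The log2FC was 0.33 for pLV-Exo-Wnt5a against Con (interval 0.09 to 0.56, edgeR, unadjusted p = 0.0105, Q = 0.504), 0.19 for Exo against Con (interval -0.07 to 0.44, Q = 0.428) and 0.15 for pLV-Exo-Wnt5a against Exo (interval -0.13 to 0.43, Q = 0.720). These comparisons share libraries. Without pLV-Exo-Wnt5a replicate 1 the first of them was 0.21 (edgeR, Q = 0.980), and without Exo replicate 1 the second was 0.04 (edgeR, Q = 0.881). The third ran from 0.034 without pLV-Exo-Wnt5a replicate 1 to 0.30 without Exo replicate 1 (edgeR, Q = 0.961 and 0.416).

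Cd81 (12520), the tetraspanin partner of immunoglobulin superfamily proteins at the cell surface, was the steadiest of the 4. It lay between 332 and 378 CPM in Con, between 339 and 348 CPM in Exo and between 347 and 377 CPM in pLV-Exo-Wnt5a. The Con range held the values of all other libraries. Its log2FC was 0.09 between pLV-Exo-Wnt5a and Exo (interval -0.03 to 0.22, edgeR, Q = 0.566), -0.03 between Exo and Con (interval -0.21 to 0.14, Q = 0.847) and 0.05 between pLV-Exo-Wnt5a and Con (interval -0.14 to 0.24, Q = 0.887). Cd82 (12521), a tetraspanin known to restrain cell movement, lay between 15.8 and 19.2 CPM in 8 libraries and at 21.8 CPM in Con replicate 1. The groups of Cd82 overlapped in every comparison, with log2FC between -0.17 and -0.03 and Q between 0.631 and 0.951 (edgeR). Without Con replicate 1 its log2FC against Con was -0.023 in Exo and -0.054 in pLV-Exo-Wnt5a.

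Since Cd63 was lower and Cd9 higher on average in the exosome groups, their counts were also set against each other within each library, a ratio that no scaling between libraries can move. The ratio was formed after the values were seen, so no test is given, and without gene lengths only its differences between libraries can be read. The count of Cd9 over that of Cd63 was 0.199, 0.263 and 0.282 in Con, 0.404, 0.299 and 0.331 in Exo, and 0.423, 0.345 and 0.328 in pLV-Exo-Wnt5a. Every Con library lay below every library that received exosomes, and the exosome groups overlapped. Since the pair was picked for lying on opposite sides of Con, a separation of this kind is favoured by the choice, and nothing is read from it. The ratio of Cd81 to Cd63 was arranged alike, from 0.729 to 0.856 in Con, from 0.917 to 0.980 in Exo and from 0.919 to 1.03 in pLV-Exo-Wnt5a. Both ratios share the count of Cd63, so the latter is no separate observation, and nothing is read from it either.

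**Figure D2:**
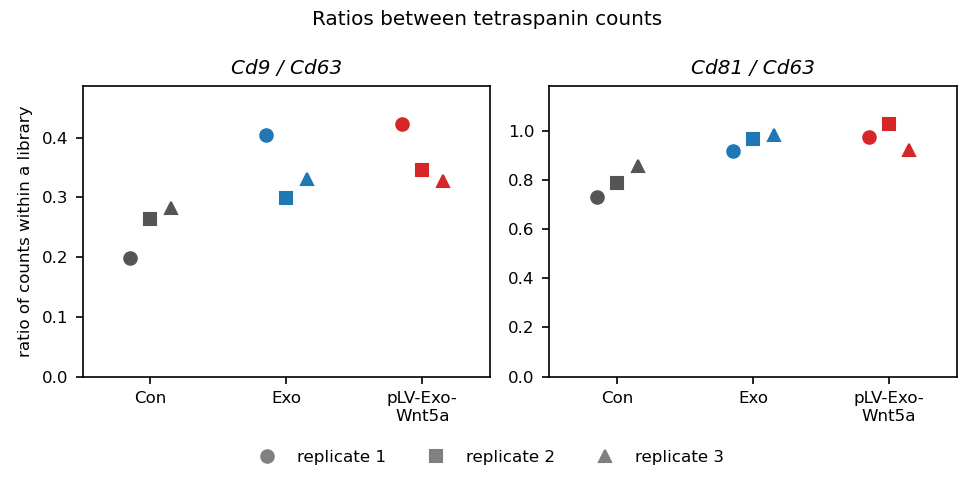
Ratio of the counts of Cd9 to Cd63 and of Cd81 to Cd63 within each library (vertical axes from 0, no unit), by group, with a marker shape for each replicate number. The 3 Con libraries lie between 0.199 and 0.282 for Cd9 over Cd63 and between 0.729 and 0.856 for Cd81 over Cd63, below the 6 libraries with exosomes.

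To show the start regions of the pair of tetraspanins with the smallest unadjusted p, which lay on opposite sides of Con, the 250 bases before the start of rat Cd63 (GRCr8 chr7:1921894-1922143, plus strand) and Cd9 (GRCr8 chr4:159975359-159975608, minus strand) are printed 5′ to 3′ from RefSeq. These are reference sequences of the rat, and no measurement of binding or of chromatin was made here. Capitals mark the GC box GGGCGG, bound by SP1, and the E-box CACGTG, on either strand.
Cd63: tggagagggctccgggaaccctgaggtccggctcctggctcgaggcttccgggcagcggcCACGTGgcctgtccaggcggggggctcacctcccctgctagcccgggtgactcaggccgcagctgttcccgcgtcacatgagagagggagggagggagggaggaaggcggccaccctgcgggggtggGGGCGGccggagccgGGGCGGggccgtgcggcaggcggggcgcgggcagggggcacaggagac
Cd9: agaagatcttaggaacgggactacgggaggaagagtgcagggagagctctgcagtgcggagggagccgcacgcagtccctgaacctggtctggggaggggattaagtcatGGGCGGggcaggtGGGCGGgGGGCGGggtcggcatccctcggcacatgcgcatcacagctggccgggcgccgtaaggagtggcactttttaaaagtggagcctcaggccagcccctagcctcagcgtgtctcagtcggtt
Cd63 held 2 GC boxes and 1 E-box and had 22 CpG, and Cd9 held 3 GC boxes and had 16 CpG. A GC box (GGGCGG or its reverse complement CCGCCC) was in 32.4% of 27457 rat promoter windows of the same length, an E-box in 5.79% and the TATA box TATAAA (or TTTATA) in 13.1%. By symbol, 7 of the 10 genes matched the RefSeq table, and Cd82, Sdcbp and Smpd3 did not. Of the 7, a GC box was in 5, an E-box in 2 (Cd63 and Pdcd6ip) and a TATA box in 0, and all 7 had more CpG than the median of 6. A match of letters is a description of the window only.

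Among the sorting genes, Tsg101 and Pdcd6ip lay within narrow ranges. Tsg101 (22088), a subunit of ESCRT-I that recognises ubiquitinated cargo, was measured at 112, 102 and 109 CPM in Con, at 119, 120 and 112 CPM in Exo and at 116, 112 and 112 CPM in pLV-Exo-Wnt5a. The lowest Exo library lay just below the highest Con library. Its log2FC was 0.11 for Exo against Con (interval -0.06 to 0.28, edgeR, Q = 0.493), 0.06 for pLV-Exo-Wnt5a against Con (interval -0.12 to 0.24, Q = 0.844) and -0.03 for pLV-Exo-Wnt5a against Exo (interval -0.16 to 0.09, Q = 0.872). Pdcd6ip (18571) encodes ALIX, which joins syntenin to the late ESCRT machinery. It averaged 73.9 ± 5.44 CPM in Con, 75.6 ± 2.60 CPM in Exo and 75.7 ± 3.66 CPM in pLV-Exo-Wnt5a (SD, n = 3 each). All 3 groups of Pdcd6ip overlapped, and its log2FC lay between 0.01 and 0.03, with Q from 0.894 to 0.954 (edgeR).

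Sdcbp (53378) encodes syntenin-1, the adaptor that links syndecans to ALIX. It was measured at 46.1, 59.8 and 68.9 CPM in Con, at 82.2, 66.9 and 70.1 CPM in Exo and at 69.3, 58.6 and 69.8 CPM in pLV-Exo-Wnt5a. Con replicate 1 was the lowest and Exo replicate 1 the highest of the 9 libraries, and the groups overlapped. The log2FC between Exo and Con was 0.32 (interval 0.02 to 0.62, edgeR, unadjusted p = 0.0407, Q = 0.318), and 0.18 without Con replicate 1 (edgeR, Q = 0.492). It was -0.14 between pLV-Exo-Wnt5a and Exo (interval -0.34 to 0.07, edgeR, Q = 0.623) and 0.17 between pLV-Exo-Wnt5a and Con (interval -0.12 to 0.46, Q = 0.723). The former was -0.050 when Exo replicate 1 was omitted and -0.057 when pLV-Exo-Wnt5a replicate 2 was. The latter was 0.036 without Con replicate 1 and 0.30 without Con replicate 3.

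Smpd3 (58994) encodes neutral sphingomyelinase 2, which makes ceramide from sphingomyelin and feeds the ESCRT-independent route of vesicle budding. Its Con libraries were nearly equal, at 207, 209 and 209 CPM. It was measured at 213, 233 and 252 CPM in Exo and at 252, 261 and 210 CPM in pLV-Exo-Wnt5a. All 6 libraries with exosomes lay above all 3 Con libraries, by little in Exo replicate 1 and pLV-Exo-Wnt5a replicate 3. The log2FC was 0.20 for pLV-Exo-Wnt5a against Con (interval -0.00085 to 0.41, edgeR, unadjusted p = 0.0508, Q = 0.598), 0.15 for Exo against Con (interval -0.03 to 0.34, edgeR, unadjusted p = 0.0902, Q = 0.383) and 0.06 for pLV-Exo-Wnt5a against Exo (interval -0.13 to 0.26, edgeR, Q = 0.846). Without Exo replicate 3 the difference between Exo and Con was 0.099 (edgeR, Q = 0.592).

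Groups that do not overlap are common at this group size. Between Exo and Con, 2 of the 10 genes did not overlap (Cd63 and Smpd3), against 23.3% of all tested genes. Between pLV-Exo-Wnt5a and Con there were 2 (Cd9 and Smpd3), against 17.1%, and between pLV-Exo-Wnt5a and Exo 0, against 16.4%. With CPM from library totals alone, without TMM, the count was 3 between Exo and Con (Tsg101 added, against 23.5% of all genes), 3 between pLV-Exo-Wnt5a and Con (Tsg101 added, against 17.1%) and 1 between both exosome groups (Cd81, against 16.5%).

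Rab27a (11891) and Rab27b (80718), the small GTPases that dock multivesicular bodies at the plasma membrane, were close to the limit of measurement. Rab27a had 11 to 28 counts per library and Rab27b 7 to 18, above the floor of 3 counts in all 9 libraries. Rab27a averaged 0.533 ± 0.192 CPM in Con, 0.480 ± 0.156 CPM in Exo and 0.404 ± 0.135 CPM in pLV-Exo-Wnt5a, and Rab27b 0.297 ± 0.0806, 0.371 ± 0.124 and 0.270 ± 0.0681 CPM in the same order (SD, n = 3 each). The groups of both genes overlapped in every comparison. The log2FC of Rab27a was -0.42 between pLV-Exo-Wnt5a and Con (interval -1.50 to 0.66, edgeR, Q = 0.825), and that of Rab27b was -0.43 between pLV-Exo-Wnt5a and Exo (interval -1.56 to 0.69, edgeR, Q = 0.803). Over the omitted libraries these ran from -0.68 to -0.15 for Rab27a and from -0.69 to -0.25 for Rab27b. Intervals of this width do not exclude a fold change of 2 or of its inverse in several of these contrasts.

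**Figure D3:**
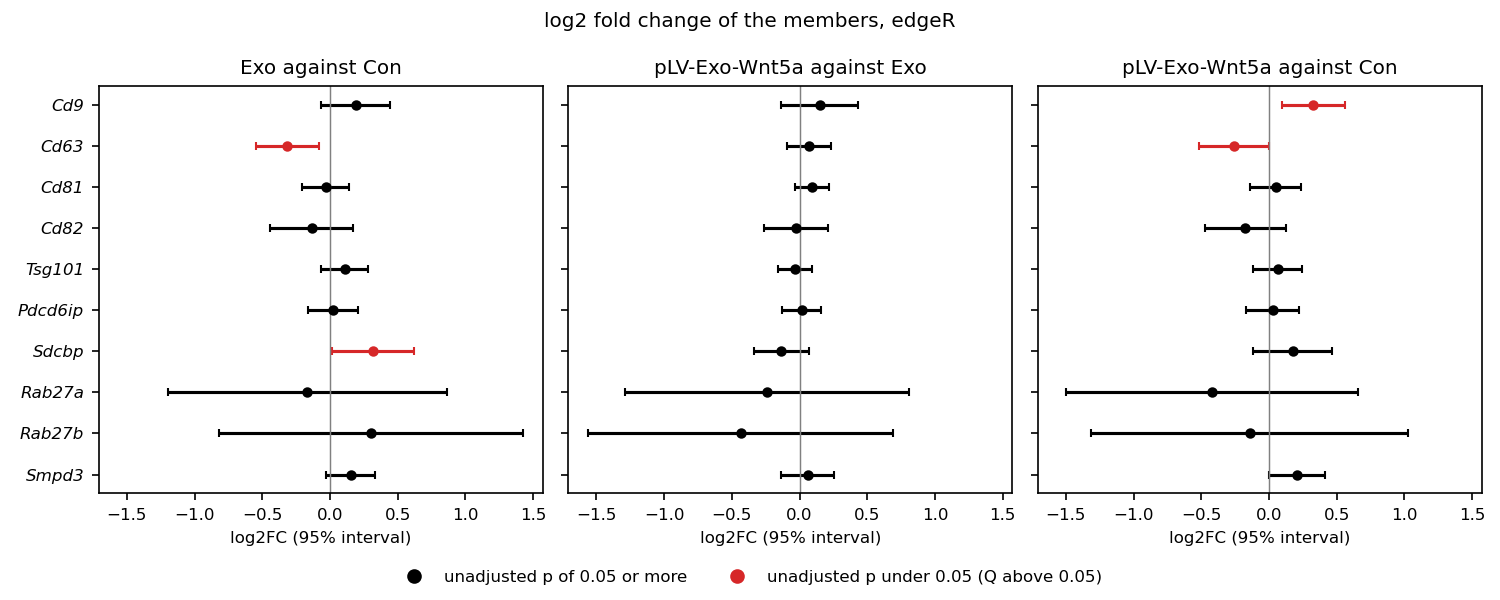
log2 fold change (horizontal axis) of the 10 genes with its 95% interval from edgeR in the 3 comparisons, red where the unadjusted p was under 0.05. Intervals of Rab27a and Rab27b are wide, those of the other 8 genes stay between -0.55 and 0.62, and no Q was under 0.05.

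For the 8 genes other than Rab27a and Rab27b, the data bound the size of a difference. Between Exo and Con the estimates ran from 19.7% lower (Cd63, -19.7%) to 24.8% higher (Sdcbp), and the outermost 95% bounds were 0.684-fold and 1.54-fold. Between pLV-Exo-Wnt5a and Exo the estimates were smaller, from -8.97% (Sdcbp) to 10.8% (Cd9), with outermost bounds of 0.791-fold and 1.35-fold. Between pLV-Exo-Wnt5a and Con they ran from -16.4% (Cd63) to 25.4% (Cd9), with bounds of 0.700-fold and 1.48-fold. A fold change of 2 or of its inverse, the limit in the study's methods, lay outside the interval of each of these 8 genes in each comparison. The median log2FC over the 10 genes was 0.07 between Exo and Con, -0.01 between both exosome groups and 0.04 between pLV-Exo-Wnt5a and Con, where the median over all tested genes was 0.00197, 0.00493 and 0.00405.

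The genes differed in how much they varied over the 9 libraries. The coefficient of variation (CV, the SD over the mean) was 4.80% for Tsg101, 4.84% for Pdcd6ip and 4.93% for Cd81, against a median of 13.5% over 15458 genes, and only 4.59%, 4.78% and 5.17% of those genes had a lower CV. Smpd3 and Cd82 followed with 9.86% and 10.2%, and Cd63, Sdcbp and Cd9 with 13.9%, 15.3% and 16.2%. Rab27a and Rab27b had the highest CVs at 32.2% and 29.9%, at counts where counting error is large. The CV falls as counts rise, and no gene was matched on its count for this description.

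Over the 9 libraries, the tested gene whose log2 CPM followed each of the 10 most closely was Rtkn for Cd63 (Pearson r = 0.987, Spearman rho = 0.967), Pgm2 for Cd9 (r = 0.980, rho = 0.950), Slc25a46 for Sdcbp (r = 0.991, rho = 0.800) and Hpcal4 for Smpd3 (r = 0.981, rho = 0.717). For the others it was Spry1 (Cd81), Kat5 (Cd82), Tmem50b (Tsg101), Adam17 (Pdcd6ip), Gm15270 (Rab27a) and Bhlhe41 (Rab27b), with r between 0.956 and 0.966. Each is the highest of 15457 correlations over only 9 libraries that share their group structure and scaling, and is given as a description. Between the 10 genes themselves, the lowest Pearson correlations were -0.79 for Cd82 with Sdcbp (rho = -0.50) and -0.72 for Cd63 with Smpd3 (rho = -0.87), and the highest was 0.71 for Pdcd6ip with Sdcbp (rho = 0.50). By rho the highest was 0.77, for Cd82 with Rab27a (r = 0.64). In the table's gene ontology annotation, 6 of the 10 carried the term extracellular exosome (Cd9, Cd63, Cd81, Tsg101, Pdcd6ip and Sdcbp), as did 79 genes in all, and 4 carried positive regulation of exosomal secretion (Tsg101, Pdcd6ip, Sdcbp and Smpd3), as did 15 genes in all. The annotation records known functions like those by which the genes were chosen, so this overlap follows from the choice.

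The wider pathway was read from 7 lists of other genes of vesicle formation and release, 126 genes in all. Of the 110 that were tested between Exo and Con, 0 had Q under 0.05, and 11 were higher and 11 lower at an unadjusted p under 0.05, where 8.92% of all tested genes were higher and 6.01% lower. Of 111 between pLV-Exo-Wnt5a and Exo, 1 gene was called (Lgals3bp), and 13 were higher and 5 lower at an unadjusted p under 0.05 (5.07% and 6.91% of all genes). Of 110 between pLV-Exo-Wnt5a and Con, 0 were called, with 7 higher and 4 lower at that level (4.2% and 4.15% of all genes). DESeq2 called 6 of the genes named from these lists at Q under 0.05 where edgeR did not: Chmp2b between Exo and Con, Tspan7 and Anxa2 between both exosome groups, and Cd44, Mfge8 and Lgals3bp between pLV-Exo-Wnt5a and Con. These genes were named for their small p in the same data. DESeq2 also called more genes than edgeR over the whole table in each comparison, so this count is no result about the lists.

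Lgals3bp (19039), which encodes a secreted galectin-3 binding glycoprotein often found with vesicles, rose in the pLV-Exo-Wnt5a group. It was measured at 7.63, 5.20 and 6.77 CPM in Exo and at 14.1, 11.8 and 13.6 CPM in pLV-Exo-Wnt5a, with no overlap. The log2FC was 1.03 (standard error 0.15, edgeR, Q = 0.0166). It was 8.98, 7.40 and 7.24 CPM in Con, and the log2FC against Con was 0.73 (standard error 0.16, edgeR, Q = 0.222). The call was lost without Exo replicate 2 (Q = 0.113), pLV-Exo-Wnt5a replicate 1 (Q = 0.0856) or pLV-Exo-Wnt5a replicate 3 (Q = 0.0592), with log2FC of 0.88, 0.98 and 0.99 (edgeR). In the same list of 18 tetraspanin partners and vesicle cargo genes, Mfge8 (17304), a secreted vesicle-bound protein, was measured at 1393 ± 151 CPM in Con, 1172 ± 53.3 CPM in Exo and 973 ± 102 CPM in pLV-Exo-Wnt5a (SD, n = 3 each), with log2FC against Con of -0.26 (Q = 0.289) and -0.53 (Q = 0.209) in edgeR. Cd44, the hyaluronan receptor, had a log2FC of 0.89 between pLV-Exo-Wnt5a and Con (edgeR, Q = 0.263) and Anxa2, a membrane-binding annexin, 0.67 between pLV-Exo-Wnt5a and Exo (edgeR, Q = 0.116). Canx, encoding calnexin of the endoplasmic reticulum, was measured at 98.6, 135 and 163 CPM in Con and at 220, 176 and 171 CPM in Exo, without overlap and with a log2FC of 0.51 (edgeR, Q = 0.265), and 0.33 without Con replicate 1. The log2FC of Mfge8 in Exo was -0.16 without that library. Between both exosome groups Mfge8 had -0.26 (edgeR, Q = 0.206), and -0.17 without pLV-Exo-Wnt5a replicate 2. Adam10, a sheddase that associates with tetraspanins, had a log2FC of 0.50 between Exo and Con (edgeR, Q = 0.308), 0.30 without Con replicate 1 and 0.75 without Con replicate 3. Between both exosome groups it had -0.36 (edgeR, Q = 0.276), and -0.22 without Exo replicate 1. Ptgfrn, an immunoglobulin superfamily partner of CD9 and CD81, had -0.21 between Exo and Con (edgeR, Q = 0.297).

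Of 27 other tetraspanins listed, 20 were tested, and 0 had Q under 0.05 in any of the 3 comparisons (edgeR). Between Exo and Con 3 were higher and 3 lower at an unadjusted p under 0.05, where 8.92% and 6.01% of all genes were, with a median log2FC of -0.02. By smallest p, the higher ones were led by Tspan13 (0.35, Q = 0.265) and Tspan12 (0.74, Q = 0.293), as log2FC in edgeR. The lower ones were led by Tspan31 (-0.28, Q = 0.269) and Tspan18 (-0.36, Q = 0.277). Tspan3 (0.17, Q = 0.318) and Tspan11 (-0.48, Q = 0.284) were the others. Tspan12 spanned 19.4 to 45.3 CPM in Con and 41.8 to 72.8 CPM in Exo, with Con replicate 1 the lowest, and its log2FC was 0.48 without that library and 0.45 without Exo replicate 1. Between pLV-Exo-Wnt5a and Exo, 5 were higher and 1 lower at an unadjusted p under 0.05, where 5.07% and 6.91% of all genes were. The lower one, Tspan7 (21912), a tetraspanin of neurons and synapses, was measured at 611, 590 and 640 CPM in Exo and at 532, 508 and 484 CPM in pLV-Exo-Wnt5a, a log2FC of -0.26 (edgeR, Q = 0.0860). Tspan4 and Cd151 had log2FC of 0.25 and 0.22 (edgeR, Q = 0.220 and 0.236). Between pLV-Exo-Wnt5a and Con, Cd53 (1.07, Q = 0.588) and Tspan7 (-0.25, Q = 0.509) were those with an unadjusted p under 0.05 in edgeR, and Cd53 had 0.61 without pLV-Exo-Wnt5a replicate 1.

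Of 29 ESCRT and accessory genes, 27 were tested. Between Exo and Con 3 were higher and 3 lower at an unadjusted p under 0.05 (8.92% and 6.01% of all genes), and 2 and 1 without Con replicate 1. Their median log2FC was -0.10 between Exo and Con, 0.03 between both exosome groups and -0.05 between pLV-Exo-Wnt5a and Con. Chmp2b (68942), a subunit of ESCRT-III, was measured at 33.1, 45.2 and 54.7 CPM in Con and at 81.5, 58.4 and 64.4 CPM in Exo, a log2FC of 0.61 (edgeR, Q = 0.265), with Con replicate 1 again the lowest library. Chmp5 had a log2FC of 0.45 (Q = 0.267), Vps37b -0.29 (Q = 0.277) and Mvb12a -0.32 (Q = 0.310) in the same comparison (edgeR). These became 0.27 without Exo replicate 1, and -0.16 and -0.19 without Con replicate 1. Between pLV-Exo-Wnt5a and Exo, 0 of the 27 had an unadjusted p under 0.05, against 12% of all genes. Against Con, Chmp5 (0.28, Q = 0.597) and Vps37b (-0.23, Q = 0.595) did in the pLV-Exo-Wnt5a group, with 0.13 for Chmp5 without pLV-Exo-Wnt5a replicate 1 and -0.10 for Vps37b without Con replicate 1.

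In the syndecan-syntenin list, 8 of 9 genes were tested. Sdc2 had a log2FC of 0.40 (Q = 0.265) and Pld2 of -0.23 (Q = 0.299) between Exo and Con, and no gene of this list had an unadjusted p under 0.05 in the other comparisons (edgeR). Of 14 enzymes of ceramide and sphingomyelin other than Smpd3, 13 were tested. Cerk, the ceramide kinase, and Smpd2, another neutral sphingomyelinase, were lower in Exo than in Con by log2FC of -0.30 and -0.24 (edgeR, Q = 0.265 and 0.334), and Smpd2 had -0.28 in pLV-Exo-Wnt5a against Con (Q = 0.573). Without Con replicate 1, Smpd2 had -0.13 and -0.15. Between pLV-Exo-Wnt5a and Exo, Sgms2 had 0.76 (Q = 0.399), Cers4 0.23 (Q = 0.400) and Asah1 -0.22 (Q = 0.357, and -0.15 without pLV-Exo-Wnt5a replicate 2). Of 9 Rab27 effectors, 5 were tested between Exo and Con, 6 between pLV-Exo-Wnt5a and Exo and 5 between pLV-Exo-Wnt5a and Con, with 0 at an unadjusted p under 0.05, against 14.9%, 12% and 8.35% of all genes. The median log2FC of the tested effectors was -0.36, 0.13 and -0.07 in that order, over 5 or 6 genes. Of 20 other secretion Rabs and SNAREs, 19 were tested, and Rab11a, a GTPase of recycling endosomes, had a log2FC of 0.56 between Exo and Con (Q = 0.265) and 0.37 between pLV-Exo-Wnt5a and Con (Q = 0.585), and Rala 0.45 between Exo and Con (Q = 0.267), all in edgeR. Rab11a was lowest in Con replicate 1 (65.6 CPM) and highest in Exo replicate 1 (156 CPM), as Sdcbp was. Without Con replicate 1, Rala had 0.30 in Exo and Rab11a 0.23 in pLV-Exo-Wnt5a, and Rab11a also had 0.23 there without pLV-Exo-Wnt5a replicate 1.

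**Figure D4:**
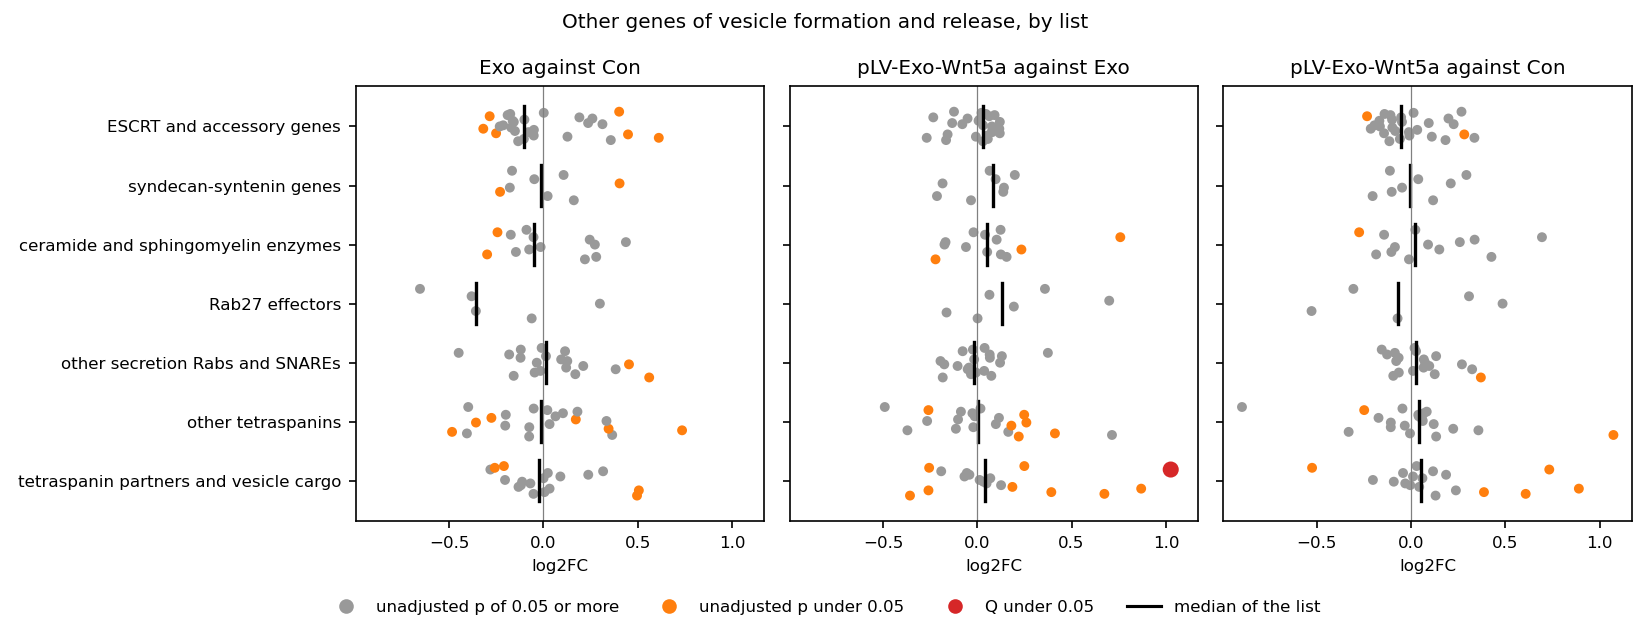
log2FC (horizontal axis) of the tested genes of 7 lists of other vesicle genes in the 3 comparisons, 1 point a gene, orange at an unadjusted p under 0.05 and red at Q under 0.05, with the list's median as a black bar. The red point is Lgals3bp at 1.03, and the medians of the 5 lists other than Rab27 effectors and ESCRT genes lie between -0.05 and 0.08.

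Markers of the cell types in the cultures were read in the same comparisons. Between Exo and Con, 7 of 10 neuron markers were higher at an unadjusted p under 0.05 (median log2FC 0.37), against 8.92% of all tested genes, and 4 of 7 tested microglia and macrophage markers were lower (median -1.24), against 6.01% of all tested genes. Likewise 3 of 9 oligodendrocyte and 3 of 8 neural stem cell markers were lower and 0 higher. None of these had Q under 0.05 in edgeR. Con replicate 1 was the lowest Con library for all 7 of the neuron markers, such as Map2 at 92.5, 150 and 185 CPM in Con replicates 1, 2 and 3. Without it, a setting added after the values were seen, 6 of 10 neuron markers were higher (median log2FC 0.23, with 6.81% of all genes higher and 5.25% lower), and 4 of 7 microglia, 3 of 9 oligodendrocyte and 3 of 8 neural stem cell markers were lower (edgeR). Between Exo and pLV-Exo-Wnt5a, 4 of 7 microglia and macrophage markers were higher in pLV-Exo-Wnt5a at an unadjusted p under 0.05 (median 1.02), against 5.07% of all genes. The summed level of the 10 microglia and macrophage markers was 13.4 to 15.7 CPM in Con, 6.07 to 6.90 CPM in Exo and 11.5 to 15.6 CPM in pLV-Exo-Wnt5a, and Ptprc, P2ry12 and Tmem119 stayed under 0.4 CPM. The summed neuron markers were at 3212 to 3226 CPM in Con, 3230 to 3813 CPM in Exo and 3036 to 3867 CPM in pLV-Exo-Wnt5a. The summed astrocyte markers were at 5365 to 6432, 5258 to 5401 and 6907 to 7283 CPM in the same order, and Gfap rose between Exo and pLV-Exo-Wnt5a with a log2FC of 0.86 (edgeR, Q = 3.36e-05), the only astrocyte marker of 10 with Q under 0.05. The other 9 astrocyte markers summed to 3103 to 3377 CPM in Con, 3041 to 3179 CPM in Exo and 2825 to 3254 CPM in pLV-Exo-Wnt5a, and the higher sum in pLV-Exo-Wnt5a was that of Gfap. At an unadjusted p under 0.05 between both exosome groups, 2 of the 10 were higher and 4 lower in pLV-Exo-Wnt5a (5.07% and 6.91% of all genes), with a median log2FC of -0.16. The lower ones were Slc1a2 (-0.42), Gja1 (-0.29), Fgfr3 (-0.24) and Slc1a3 (-0.21), with Q from 0.144 to 0.282 (edgeR). The summed oligodendrocyte markers were at 2899 to 3271, 2671 to 2954 and 2581 to 2861 CPM, with Mog at most at 0.28 CPM, and the neural stem cell markers at 3204 to 3392, 2719 to 3218 and 3104 to 4049 CPM. In the same comparison as Gfap, Vim rose (log2FC 0.62, Q = 0.0389) and Dcx, of immature neurons, fell (log2FC -0.60, Q = 0.0113) in edgeR. At an unadjusted p under 0.05 there, 0 of 10 neuron markers were higher and 3 lower (median log2FC -0.03). Of 9 oligodendrocyte markers 2 were higher (Mag 0.71, Mbp 0.57) and 1 lower. Of 8 neural stem cell markers 2 were higher and 0 lower (5.07% and 6.91% of all genes). In pLV-Exo-Wnt5a against Con, 4 of 10 neuron markers were higher and 0 lower (4.2% and 4.15% of all genes, median log2FC 0.19). Mesenchymal and fibroblast markers, which the donor BMSCs would carry, summed to 149 to 175, 155 to 165 and 136 to 147 CPM. The sum came mostly from Thy1, at 112 to 143 CPM, with Pdgfrb at 9.87 to 20.1 CPM and each other marker at most at 4.12 CPM. Between Exo and Con, 0 of 7 tested were higher and 1 lower at an unadjusted p under 0.05 (8.92% and 6.01% of all genes). The lower one was Pdgfrb (log2FC -0.74, edgeR, Q = 0.265). Without Con replicate 1, 2 of 8 were higher and 2 lower (6.81% and 5.25% of all genes). Endothelial markers summed to 8.46 to 10.1, 7.06 to 11.5 and 7.11 to 10.4 CPM, with Cdh5 at 0 in all Con and pLV-Exo-Wnt5a libraries and Cldn5 at 0 in all Exo libraries. The part of these differences in the values of the tetraspanin and exosome genes was not tested.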

How the data were processed

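RNA-seq of 9 NSC libraries (Con, Exo and pLV-Exo-Wnt5a, n = 3 each) was used. The table that the authors deposited holds whole-number counts for each gene with no scaling. The paper's methods name HISAT2 for alignment, whereas the submitters' processing notes name Bowtie2, RSEM 1.3.1 and DESeq2 1.4.5 without roles, so the counts may be rounded estimates. The genome build is not given in the sources used here. The handling of reads shared by similar genes is not stated, and 0 columns of counts were left without a sample.

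After filterByExpr and TMM scaling, groups were compared by quasi-likelihood in edgeR 4.0.16 (R 4.3.3), in pairs of groups on 6 libraries and jointly on 9. P-values were adjusted over all genes tested (Q), and 95% intervals use the standard error from the test statistic. DESeq2 1.42.0 was an alternative, as were RLE normalization, other filters, the replicate number as a block, all 9 libraries in a pairwise fit, other thresholds and leaving out each library. On simulated counts with 200 changed genes, edgeR recovered 99.5% with 5 false calls (pLV-Exo-Wnt5a against Exo, 14972 genes) and 100% with 5 false calls (joint test, 15224 genes). DESeq2 made 13 and 30 false calls in these. Its share of false calls in the joint test was above the nominal level, so its calls are given only as an alternative. The size of the difference given to the 200 genes is not stated here. Recovery of differences as small as those of the 10 genes was not tested, nor was recovery in the pairwise comparisons with Con.

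The rule for the 10 genes used names and functions and no measured value, but it, the lists and the alternatives were written with earlier results of these data known. Named from each list were up to 2 genes in each direction per comparison with the smallest unadjusted p under 0.05, and for each of the 10 genes the most correlated gene. Log2 CPM used a prior count of 2. Gene lengths were not used here, and promoter sequences are from RefSeq (GRCr8).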

Additional observations from a re-analysis of the deposited data

How the results depend on the processing

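The count of 0 of 10 genes at Q under 0.05 held under RLE normalization, DESeq2, at least 10 counts in every library (9 genes tested), the replicate block and each library left out in all 4 tests, and with all 9 libraries in the 3 pairwise fits. The exception was the joint test without a filter on low counts, which called 1 (Cd63). Without this filter, calls over all genes also rose in each pairwise comparison, as given below. The share of all genes called in that joint test is not given here, so nothing is read from the call of Cd63. At an unadjusted p the count was 2 between Exo and Con, 0 between both exosome groups and 2 between pLV-Exo-Wnt5a and Con. The lowest Q of any of the 10 genes in a pairwise alternative was 0.0589, for Cd63 between Exo and Con without Con replicate 3. Of 357 alternative log2FC of the 10 genes, 341 kept their sign, and the 16 that did not came from leaving out a library. Over the left-out libraries, the log2FC between Exo and Con ran from -0.069 to 0.031 for Cd81, from -0.020 to 0.078 for Pdcd6ip and from -0.45 to 0.10 for Rab27a. Between both exosome groups it ran from -0.012 to 0.14 for Cd63, from -0.085 to 0.055 for Cd82, from -0.033 to 0.047 for Pdcd6ip, from -0.51 to 0.054 for Rab27a, from -0.0056 to 0.14 for Smpd3 and from -0.072 to 0.12 for Wnt5a, which stood at -0.00124 with all 9 libraries in the fit. Between pLV-Exo-Wnt5a and Con it ran from -0.0097 to 0.078 for Pdcd6ip and from -0.27 to 0.11 for Rab27b.

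Libraries with the same replicate number did not move together (r between -0.201 and 0.0634), so the number was not taken as a pairing. With the replicate block 0 of the 10 genes were called in each test, and over all genes it gave 0 calls against 1 between Exo and Con, 116 against 66 between both exosome groups and 38 against 13 between pLV-Exo-Wnt5a and Con. Over all genes, DESeq2 gave 211, 411 and 72 calls and no filter on low counts 446, 397 and 86, in the same order. Among the named genes of the lists and Wnt5a, 26 of 480 alternative values passed Q where the reported one did not. Without Con replicate 3, Chmp2b, Rab11a, Canx, Tspan12 and Adam10 passed between Exo and Con (Q from 0.0359 to 0.0423). With no filter on low counts, Chmp2b, Chmp5, Rab11a, Rala, Tspan12, Tspan13 and Canx passed between Exo and Con (Q from 0.0107 to 0.0451), Tspan7, Anxa2 and Mfge8 between both exosome groups (0.0168 to 0.0326) and Cd44, Lgals3bp and Mfge8 between pLV-Exo-Wnt5a and Con (0.000351 to 0.0302). With the replicate block, Cd44 and Mfge8 passed in the last of these (Q = 0.00696 and 0.0189). DESeq2 called Chmp2b between Exo and Con (Q = 0.0400), Tspan7 (Q = 0.00547) and Anxa2 (Q = 0.0110) between both exosome groups, and Cd44 (Q = 0.00492), Lgals3bp (Q = 0.00609) and Mfge8 (Q = 0.00478) between pLV-Exo-Wnt5a and Con. Why these calls moved was not tested.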

Other observations

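In Con replicate 1, Cd63, Cd81 and Cd82 had their highest value of the 9 libraries, at 518, 378 and 21.8 CPM. Cd9, Pdcd6ip, Sdcbp and Smpd3 had their lowest there, at 103, 69.2, 46.1 and 207 CPM. Some of these lay close to the next library. Cd81 was at 377.5 CPM there and at 377.2 CPM in pLV-Exo-Wnt5a replicate 3, and Smpd3 was at 206.8 and 208.9 CPM in Con replicates 1 and 3. Con replicate 1 stood apart over all genes, and the share of all genes with an extreme value in it was not counted.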
